A study of Mus musculus with 5 samples.

Results

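The ribosomal protein genes encode the protein part of the cytoplasmic ribosome. They were taken from the mouse annotation GENCODE vM1 as the protein-coding genes whose names begin with Rpl or Rps followed by a number, together with Rplp0, Rplp1, Rplp2 and Rpsa, and without the Rps6k kinases. This gave 138 members among 22350 protein-coding genes on chromosomes 1 to 19 and X. Of the members, 77 were the core genes for ribosomal proteins, 8 were paralogs or partners of them (such as Rpl22l1 and Rps27l), and 53 were loci with ps in the name, a name given to pseudogene-type copies, which this annotation lists as protein-coding. All 53 of the latter had 1 exon.

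Occupancy by the RUNX transcription factor Runx3 and marking by H3K4me1, the monomethylated lysine of histone H3 that is abundant at enhancers, were mapped by ChIP-seq. The cells were CD8+ T cells from the spleen of ICR mice, called CD8-TC below, and had been bound to anti-CD8 beads, activated through the T cell receptor for 2 days with anti-CD3e and anti-CD28, and then grown for 4 days with 100 u/ml IL-2. Of the 5 libraries, 2 were Runx3 precipitations, 2 were precipitations with non-immune serum (NIS) and 1 was an H3K4me1 precipitation, and all 5 came from cells treated alike. For each antibody the reads had been joined before a single peak calling, with NIS as background. The lists give neither read numbers nor a value for each library, so the number of reads in a region is not known, no replicate error can be given and no difference below was tested over replicates. A region counted for a gene when its centre lay within 1 kb or 5 kb of the gene start. Intervals are 95% Wilson intervals and cover counting error among genes only.

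Ribosomal protein genes are transcribed at high rates in growing cells, and T cells raise ribosome production when they are activated. Their mRNAs begin with a run of pyrimidines, through which the mTOR pathway controls their translation. The spliced mRNAs have often been copied back into the genome, so that intact genes, compact and with CpG-rich promoters, exist beside many copies without introns that lack the original promoter. Runx3 drives the cytotoxic program of CD8-TC and recognises the RUNX motif.

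Cell identity was examined at marker loci. Of 8 markers of CD8-TC, 6 had a Runx3-bound region within 5 kb (Cd8a, Cd3d, Cd3g, Gzmb, Prf1 and Ifng), and 7 had an H3K4me1-marked region, Cd8b1 being the exception. Of all protein-coding starts, 13.4% had the former and 15.8% the latter. Among markers of other cells, Itgax, Cd79a, Ncr1 and Klrb1c had no Runx3-bound region within 5 kb, whereas Itgax, Cd79a and Klrb1c had an H3K4me1-marked region. By count, 4 of 5 markers of other cells had an H3K4me1-marked region, so H3K4me1 did not separate them from the markers of CD8-TC. The part of other cells in the results was not tested.

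The RUNX motif was searched on both strands in its variants without a CpG, which are TGTGGT and TGTGGC, and with a CpG, which are TGCGGT and TGCGGC. The sequences below are those in which a motif lay nearest to the centre of a Runx3-bound region at a member's start, and are shown since they place the motif beside the start of genes such as Rplp0 and Rps12. Each is 30 bases of the NCBIM37 assembly (mm9), read 5′ to 3′ on the strand given, with the motif in capitals. Positions are counted along transcription, negative values being upstream of the gene start.
Rpl19 (chr11:97888275-97888304, plus strand, motif centred 266 bp from the start): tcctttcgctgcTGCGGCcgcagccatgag
Rps28 (chr17:33961496-33961525, minus strand, motif centred -4 bp from the start): ctgggtaccgcgTGCGGTctcgcgagagcg
Rpl13 (chr8:125626289-125626318, plus strand, motif centred 54 bp from the start): cccagggtgcttTGCGGTgcccggtccttt
Rplp0 (chr5:116009502-116009531, plus strand, motif centred 40 bp from the start): cacacgcgggcaTGCGGCccgtctctcgcc
Rps9 (chr7:3655378-3655407, plus strand, motif centred -202 bp from the start): aaaagtgacaacTGTGGTtactcaatcaat
Rps12 (chr10:23507005-23507034, minus strand, motif centred -4 bp from the start): taaataccgtcaTGCGGCcaccgccggcct
Rpl10a (chr17:28465406-28465435, minus strand, motif centred 4 bp from the start): ggcgctgcagttTGCGGCcgctgggggggc
Rpl22 (chr4:151700010-151700039, plus strand, motif centred 174 bp from the start): tatggctccgcgTGCGGCcgcggttccgtg

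In Rpl19 the motif shown overlaps its own reverse complement, so that both strands were counted there. The variant nearest to the centre was TGCGGC in 5 of these 8 genes, TGCGGT in Rps28 and Rpl13, and TGTGGT in Rps9. For comparison, the following members had no Runx3-bound region within 5 kb although a RUNX motif lay close upstream of the start.
Rps10 (chr17:27773570-27773599, plus strand, motif centred -10 bp from the start): tgtagcctgggcTGCGGTcaatcttgagat
Rpl31 (chr1:39424660-39424689, minus strand, motif centred -22 bp from the start): aggaggaagaggTGTGGCgagggaagttag
Rps23 (chr13:91062690-91062719, minus strand, motif centred -22 bp from the start): ccgaaggccccgTGCGGCtgtccaagcggc
Rpl23a-ps1 (chr1:46038355-46038384, minus strand, motif centred -24 bp from the start): aaaggatggacaTGTGGTttcttaaatgtc

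Runx3 occupied a set of core ribosomal protein gene promoters. Of the 138 members, 16 (11.6%, interval 7.26 to 18%) had a Runx3-bound region within 1 kb of the start, compared to 8.84% of all protein-coding starts. Of the 77 core genes, 15 did so (19.5%, interval 12.2 to 29.7%), of the 8 paralogs and partners 1 did so, and of the 53 ps-named loci 0 did so (interval 0 to 6.76%). A count of 0 in 53 allows a share of up to 5.66% when 3 counts are taken as the limit. At this distance the share of core genes was thus above that of all starts, and the ps-named loci had no region. Starts of like CpG content are set beside both below.

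Core starts and ps-named loci differed in sequence, and this bears on the choice of background. A CpG ratio of at least 0.6 in the 1 kb around the start was found at 72 of the 77 core starts (93.5%), at 2 of the 53 ps-named loci (3.77%) and at 45.6% of all starts. Among the 10196 CpG-rich starts, 15.3% had a Runx3-bound region within 1 kb. This value lies inside the interval of the core genes, so that the core genes were not distinguishable from other CpG-rich starts at this distance. Among the 12154 starts with a lower CpG ratio, 3.45% had such a region. This lies inside the interval of the ps-named loci (0 to 6.76%), which were likewise not distinguishable from those starts. The share of 32-base words that occur once in the genome, taken within 1 kb of the start, had a median of 92.4% at core starts, 72.6% at ps-named loci and 99.55% at CpG-rich starts. Reads had been kept where they aligned to 1 place, and the part of this difference in the counts was not tested.

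Within 5 kb, 29 members had a Runx3-bound region (21.0%, interval 15.0 to 28.6%), compared to 13.4% of all starts. Among core genes there were 24 (31.2%, interval 21.9 to 42.2%), compared to 20.5% of CpG-rich starts. The value of 20.5% lies under this interval. Among the 72 core genes with CpG-rich starts there were 21 (29.2%, interval 19.9 to 40.5%). This interval includes 20.5%, so that these 72 genes were not distinguishable from other CpG-rich starts at this distance. Of the 5 core genes with a lower CpG ratio, 3 had a region (interval 23.1 to 88.2%). The share of all starts with a lower CpG ratio, 7.57%, lies under that interval. Of the ps-named loci 3 had a region (5.66%, interval 1.94 to 15.4%), compared to 7.57% of the starts with a lower CpG ratio. The 4 members on chromosome X (Rpl10, Rpl36a, Rpl39 and Rps4x) had no region of either list within 5 kb. They were among 90 members without such a region. With autosomes only, the Runx3 share of all starts within 5 kb was 13.9% rather than 13.4%. For H3K4me1 it was 16.5% rather than 15.8%. The share of chromosome X starts was not computed, so these members were not compared with other starts there. The shares are drawn in the plot of gene starts with a called region.

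**Figure D1:**
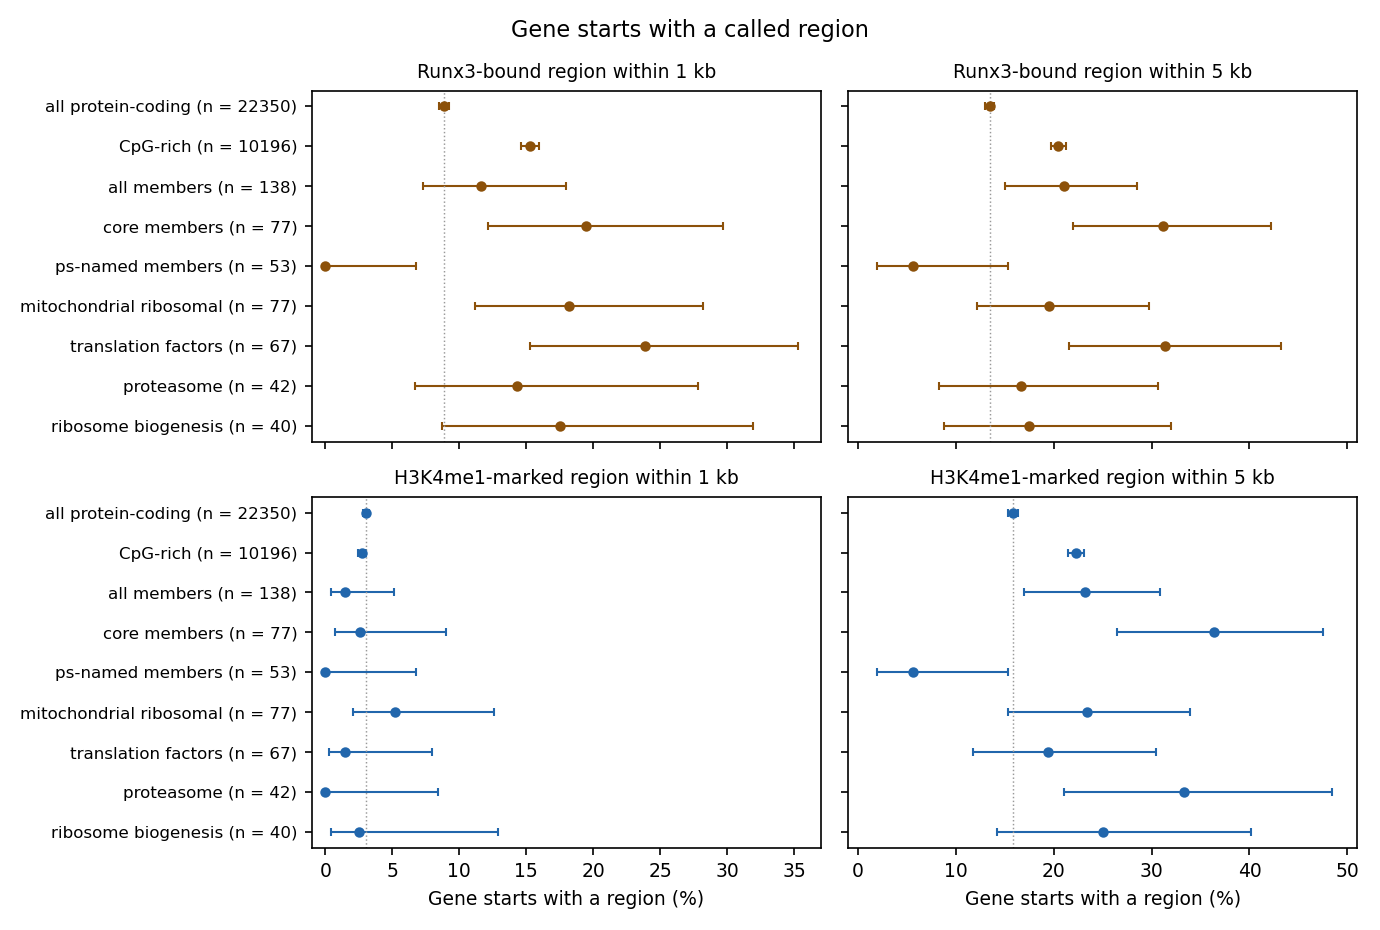
Share of gene starts (x axis, %) with a Runx3-bound (top) or H3K4me1-marked (bottom) region centred within 1 kb (left) or 5 kb (right), for all starts, CpG-rich starts, the members and their classes, and 4 other gene groups. Points are shares, bars are 95% Wilson intervals and dotted lines mark all starts. Core members reach 31.2% and 36.4% within 5 kb, and ps-named members 5.66% in both lists.

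Of the proteins of the large subunit, 10 of 45 core genes (22.2%, interval 12.5 to 36.3%) had a Runx3-bound region within 1 kb. Rplp0 forms the base of the stalk that binds the elongation factors, and its region (chr5:116009226-116009708, over UTR, intron and intergenic sequence) was centred -9 bp from the start. The other proteins of that stalk, Rplp1, Rplp2 and Rpl12, had none within 5 kb, and the nearest region lay -17520 bp from Rplp1, 20307 bp from Rplp2 and 5393 bp from Rpl12, the last just past the limit. Rpl10a sits in the stalk on the other side of the subunit, and its region (chr17:28465058-28465605) was centred at -85 bp.

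Rpl22, a protein at the exit of the peptide tunnel that is needed for the development of alpha-beta T cells, had a region at 267 bp (chr4:151699813-151700424). Rpl19, at the same exit, had one at 258 bp (chr11:97887931-97888633). Both regions spanned coding exon, UTR, intron and intergenic sequence and reached over the gene start. Of the 8 genes listed for the tunnel exit these were the 2 with a region within 1 kb.

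Rpl13a, which also acts outside the ribosome in silencing inflammatory mRNAs, had the widest promoter region among members, at 916 bp (chr7:52391246-52392161, centred at 84 bp). It lay within 1 kb of the start of Flt3l, which encodes a cytokine of dendritic cell development, so the region cannot be given to 1 of the 2 genes. Rpl13 had a region at 13 bp (chr8:125626056-125626471, over UTR and intron). Rpl3, close to the site of peptide bond formation, had one at -141 bp (chr15:79913684-79914270). Rpl27 (chr11:101303349-101303815, at -30 bp), Rpl37 (chr15:5066233-5066910, at -42 bp) and Rpl38 (chr11:114529682-114529964, at -15 bp), the last known for its role in the translation of Hox mRNAs, completed the large subunit.

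Of the small subunit, 5 of 32 core genes (15.6%, interval 6.86 to 31.8%) had a region within 1 kb, so the shares of both subunits had overlapping intervals. These were Rps12 (chr10:23506828-23507324, at -61 bp), Rps25 (chr9:44215343-44215915, at -168 bp), Rps28 (chr17:33961365-33961698, at -24 bp), Rps3a (chr3:85946435-85946894, at -40 bp) and Rps9 (chr7:3655194-3655703, at -147 bp). Rps25 is known for its role in initiation at internal ribosome entry sites. Its region lay within 1 kb of the start of Trappc4, a vesicle tethering factor, and that of Rps28 within 1 kb of the start of Ndufa7, a subunit of respiratory complex I. Rps27l, a paralog of Rps27 induced by p53, had a region at 200 bp (chr9:66793713-66794474).

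Regions at member starts lay close to the start. All 16 covered the annotated start, 11 were centred upstream and 5 downstream of it, and their centres ranged from -168 to 267 bp. The centre was within 100 bp for 10 of 16 (62.5%, interval 38.6 to 81.5%). Of the 1976 bound protein-coding starts it was 39.2%, a value inside this interval. Within 300 bp it was 16 of 16, compared to 74.9%, and no interval was computed for this share. The median distance was 72.5 bp in members and 137 bp in all bound starts, while median widths were 529 and 546 bp. In the 16 regions a median of 99.4% of 32-base words were unique, with a lowest value of 80.2%. Between 267 bp (Rpl22) and 1066 bp (Rpl9-ps6) no member had its nearest Runx3-bound region, so that any limit between these values gives the same 16 genes.

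**Figure D2:**
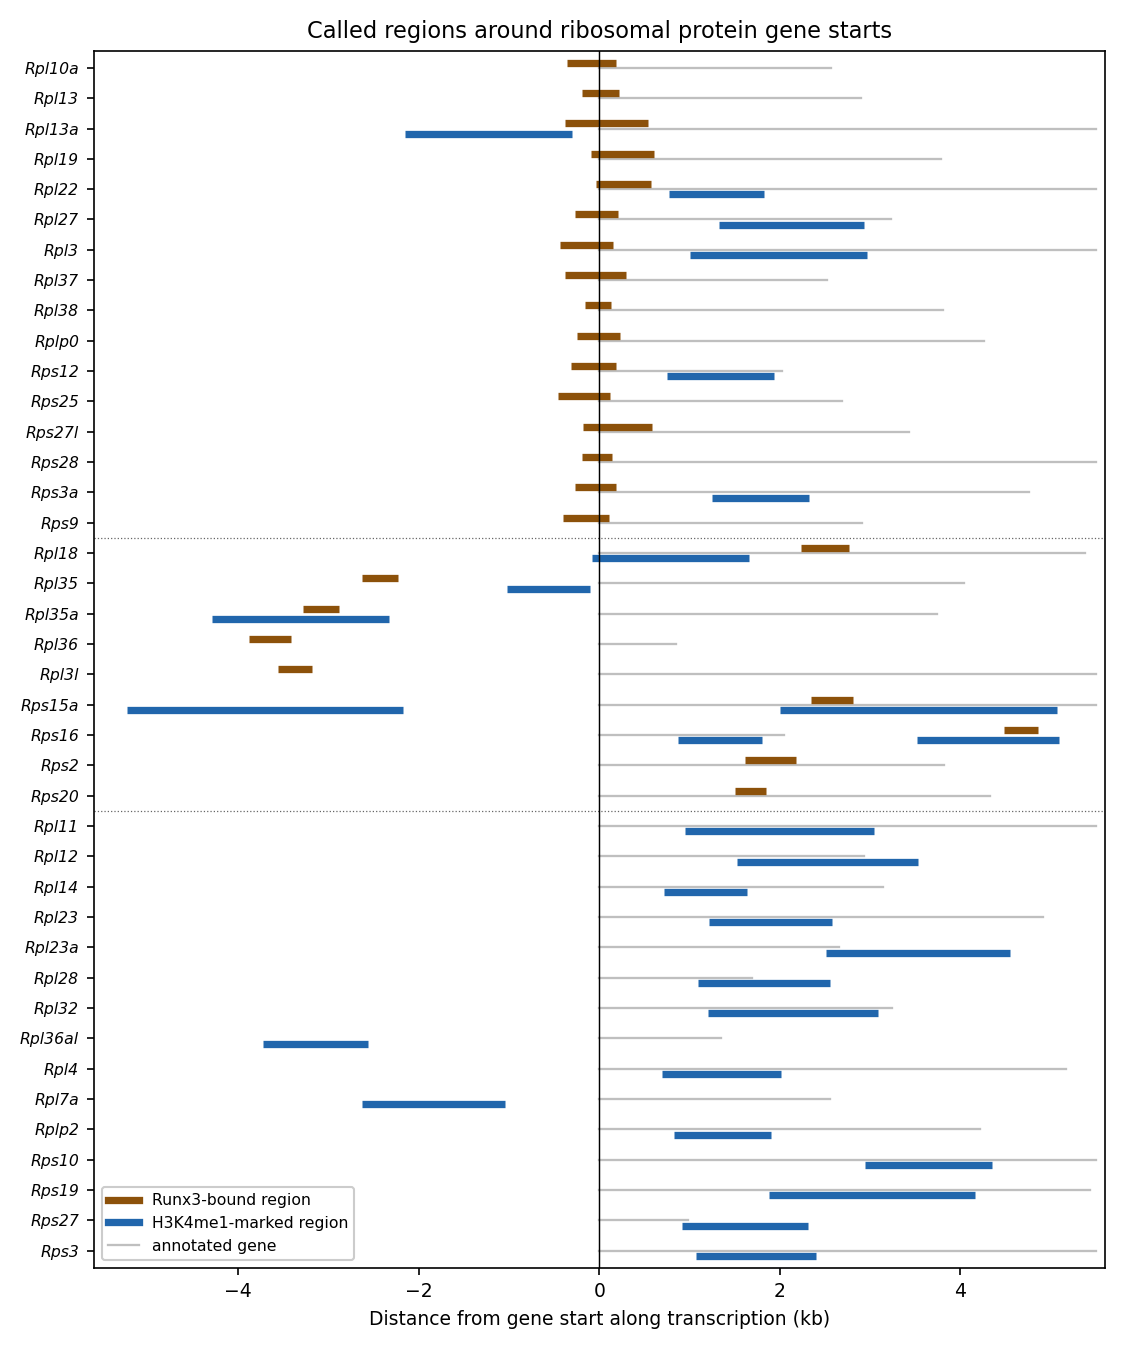
Called regions around the starts of most core members and paralogs with a region of either list centred within 5 kb. The x axis is the distance from the gene start along transcription in kb, bars span the regions, grey lines are genes (cut at the plot edge), and dotted lines separate members with Runx3 within 1 kb, at 1 to 5 kb and with H3K4me1 only. Runx3-bound bars cover the start in the top 16 genes, and H3K4me1-marked bars lie mostly downstream of it.

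A further 13 members had their nearest Runx3-bound region 1 to 5 kb away. In Rps2 the region at 1898 bp (chr17:24856675-24857243) lay -49 bp from the start of another protein-coding transcript of the gene. In Rpl18 the region at 2500 bp (chr7:52973058-52973596) lay -114 bp from such a start, and also within 1 kb of the start of Sphk2, a sphingosine kinase. Counting protein-coding transcript starts therefore added Rps2 and Rpl18 and gave 18 members within 1 kb. The region of Rps20 at 1672 bp (chr4:3760970-3761310) lay in UTR, held none of the RUNX motifs and was 341 bp wide.

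Others of these regions belonged as much to a neighbour. The regions at Rpl35 (-2424 bp), Rpl36 (-3650 bp) and the paralog Rpl3l (-3371 bp) lay within 1 kb of the starts of Arpc5l, 2410015M20Rik and Ndufb10, respectively. The regions at Rpl35a (-3080 bp), Rps15a (2581 bp) and Rps16 (4670 bp) lay wholly within an H3K4me1-marked region, and that of Rps15a was intronic. The ps-named loci were Rpl27a-ps1 (-3474 bp), Rpl37-ps1 (4020 bp) and Rpl9-ps6 (1066 bp), and each region was intergenic. At the limit of 5 kb, Rps16 was the last member inside and Rpl7a-ps3 (5290 bp) the first outside.

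Several ribosomal proteins with roles beyond the ribosome had no Runx3-bound region within 5 kb, as was the case for 53 of the 77 core genes. Rpl13a, which also acts outside the ribosome, had one. Rpl5 and Rpl11, which together bind and inhibit Mdm2, had their nearest regions at 26220 and 31605 bp. For Rps6, the substrate of S6 kinases, the nearest was 108964 bp away, for Rps14 -143757 bp, for Rps19 22878 bp and for Rpsa, also known as a laminin receptor, -44893 bp. Among genes of the small subunit that are mutated in inherited anaemia, Rps19, Rps24, Rps7, Rps10 and Rps26 had no Runx3-bound region within 5 kb, whereas Rps10 and Rps19 had an H3K4me1-marked one. Across core genes the median distance to the nearest Runx3-bound region was 26.2 kb, compared to 45.3 kb for CpG-rich starts, 72.8 kb for all starts and 126 kb for ps-named loci.

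H3K4me1-marked regions at the starts themselves were few in members and in other genes. Of the 138 members, 2 (1.45%, interval 0.398 to 5.13%) had an H3K4me1-marked region centred within 1 kb, compared to 3.04% of all starts and 2.72% of CpG-rich starts. These were Rpl18 (chr7:52970751-52972487, centred at 792 bp, over UTR and intron) and Rpl35 (chr2:38861241-38862171, at -562 bp, overlapping UTR of Wdr38). The next was Rpl14 at 1181 bp. When the nearest base of the region was used in place of its centre, the share was 10.1% of members and 8.26% of all starts.

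Within 5 kb the picture differed. An H3K4me1-marked region was found at 32 members (23.2%, interval 16.9 to 30.9%), compared to 15.8% of all starts, and at 28 of the 77 core genes (36.4%, interval 26.5 to 47.5%), compared to 22.2% of CpG-rich starts. Of the 72 core genes with CpG-rich starts, 25 had one (34.7%, interval 24.8 to 46.2%), and 22.2% lies under this interval. Of the ps-named loci 3 had one (Rpl12-ps1, Rpl27a-ps1 and Rpl7a-ps3), and of the paralogs and partners Rpl36al did. The ps-named share was 5.66% (interval 1.94 to 15.4%), compared to 10.4% of the starts with a lower CpG ratio. By subunit, 17 of 45 large subunit genes (37.8%) and 11 of 32 small subunit genes (34.4%) were marked. Rpl7a-ps3 at 4926 bp was the last member inside the limit and Rps25 at 5147 bp the first outside.

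The marked regions of core genes lay mostly downstream of the start rather than before it. In 24 of the 28 core genes (85.7%, interval 68.5 to 94.3%) the nearest region was centred downstream of the start, compared to 50.4% of all marked starts and 55.4% of marked CpG-rich starts. In 17 of 28 (60.7%, interval 42.4 to 76.4%) the centre was 1 to 2.5 kb downstream, compared to 25.6% and 32.1%. Neither the side nor this band was among the planned comparisons, and the band lies where core regions were found. The median position in core genes was 1760.5 bp. Examples are Rpl11 at 2000 bp, Rplp2 at 1362 bp, Rps3 at 1735 bp and Rpl4 at 1352 bp, and Rps19 followed at 3025 bp.

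Of the 30 H3K4me1-marked regions within 5 kb of core starts, 20 were centred inside the gene, 5 upstream of it and 5 beyond its 3′ end, and 1, that of Rpl18, covered the start. They were 921 to 3070 bp wide, with a median of 1577 bp. Core genes are short, with a median length of 3232 bp compared to 25162 bp for genes with CpG-rich starts, so a region 1 to 2.5 kb downstream covers much of the gene body. The median share of unique 32-base words in this stretch was 85.5% in core genes and 98.7% for CpG-rich starts, and its part in the result was not tested.

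The profile of cover along the genes showed the same positions without a rule on centres. At 1.5 kb downstream, 18 of 77 core genes (23.4%) lay in an H3K4me1-marked region, compared to 7.46% of CpG-rich and 4.62% of all starts. At 1 kb upstream it was 2 of 77 (2.60%), compared to 5.77% and 4.71%. The interval for 2 of 77 is 0.715 to 8.98% and includes both, so core genes were not distinguishable upstream. At 500 bp downstream the share was 1.30% in core genes. As a group, CpG-rich starts thus had some cover on both sides, and core ribosomal protein genes were covered mostly on the downstream side. Whether the same start was marked on both sides was not examined.

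**Figure D3:**
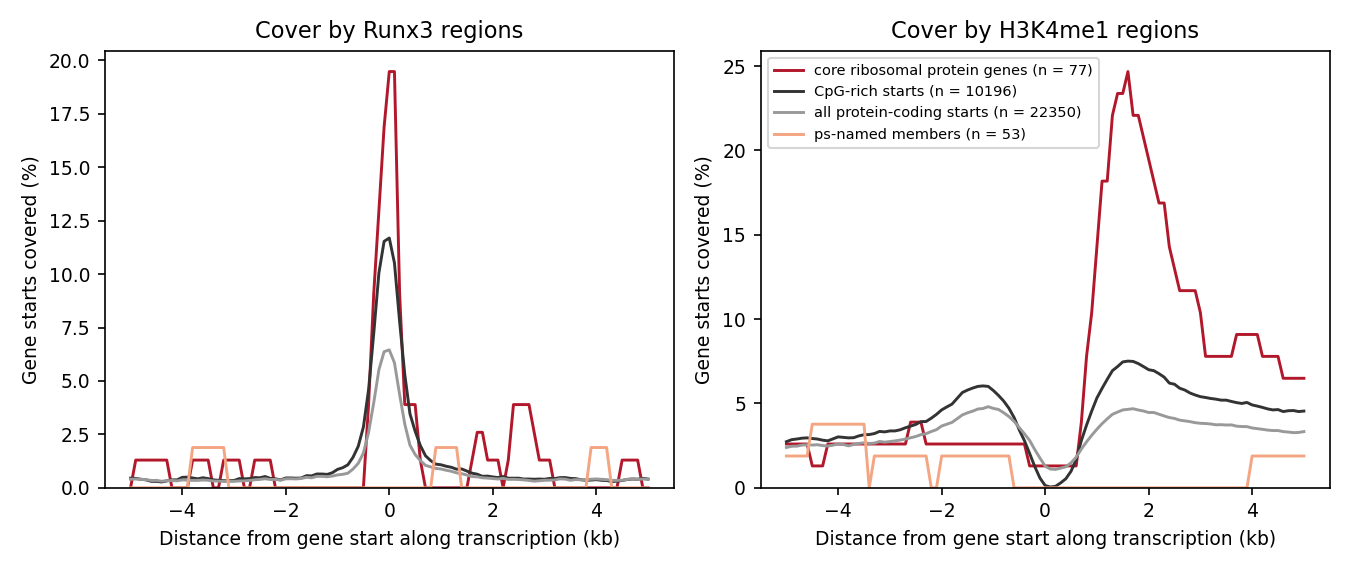
Share of gene starts (y axis, %) whose position at a given distance (x axis, kb along transcription) lies in a Runx3-bound (left) or H3K4me1-marked (right) region. Runx3 cover of core genes peaks at the start with 19.5%, compared to 11.7% of CpG-rich starts. H3K4me1 cover of core genes lies downstream of the start, with 23.4% at 1.5 kb compared to 7.46% of CpG-rich starts.

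Overlap of Runx3 with H3K4me1 at member promoters was compared with that at all bound promoters. Of the 16 promoter regions, 1 (6.25%, interval 1.11 to 28.3%), that of Rpl13a, overlapped an H3K4me1-marked region, by 69 bp, compared to 10.7% of the 1976 bound starts, a value inside the interval. A marked region within 1 kb of the Runx3-bound one was found for Rpl13a, Rpl22, Rpl3 and Rps12 (4 of 16, 25.0%), compared to 26.9%. The gap was 198 bp at Rpl22, 559 bp at Rps12 and 854 bp at Rpl3. Rpl27 and Rps3a had gaps of 1128 and 1060 bp.

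Marking by H3K4me1 was compared between core genes with and without Runx3. An H3K4me1-marked region lay within 5 kb of 6 of the 15 core genes with Runx3 within 1 kb (40.0%, interval 19.8 to 64.3%) and of 22 of the 62 without (35.5%, interval 24.7 to 47.9%). Over all starts these shares were 39.4% and 13.5%. With Runx3 counted within 5 kb, such a region lay near 12 of 24 core genes with Runx3 and 16 of 53 without (30.2%), compared to 48.8% and 10.7% of all starts. The difference between core genes and all starts in this respect was not tested. Starts of like CpG content were not split by Runx3. Whatever their Runx3, 22.2% of CpG-rich starts and 10.4% of the others were marked within 5 kb, and the part of CpG content was not tested.

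RUNX motifs were present in most of the promoter regions, and few lay at the centre. A motif was held by 14 of 16 (87.5%, interval 64.0 to 96.5%), and by 90.3% of the regions at bound starts, while the regions of Rpl27 and Rpl38 held none. In the central 200 bp it was present in 10 of 16 (62.5%, interval 38.6 to 81.5%), compared to 69.7%. In the central 100 bp it was present in 3 (Rpl13, Rpl19 and Rps28; 18.75%, interval 6.59 to 43.0%), compared to 45.1%, which lies above the interval. Rpl37 and Rpl19 held 5 motifs each, and Rps28, Rps9 and Rps3a held 1. In Rpl19 the motifs centred 265.5 and 269.5 bp from the start overlap each other, as do those at 407.5 and 411.5 bp. Both strands were counted at each of these places, so Rpl19 held fewer separate sites than motifs.

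The variants were then counted one by one. In the central 200 bp, TGCGGC was found in 5 of 16 regions (31.25%, bound starts 23.9%), TGCGGT in 2 (12.5%, 25.7%), TGTGGT in 2 (12.5%, 22.5%) and TGTGGC in 1 (6.25%, 17.9%), and each value at bound starts lay inside the interval of the members. The ETS core CCGGAA was found in 5 (31.25%, bound starts 28.6%), among them Rpl27 and Rpl38, the regions without a RUNX motif. The GC box GGGCGG was found in 7 (43.75%, bound starts 49.0%).

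**Figure D4:**
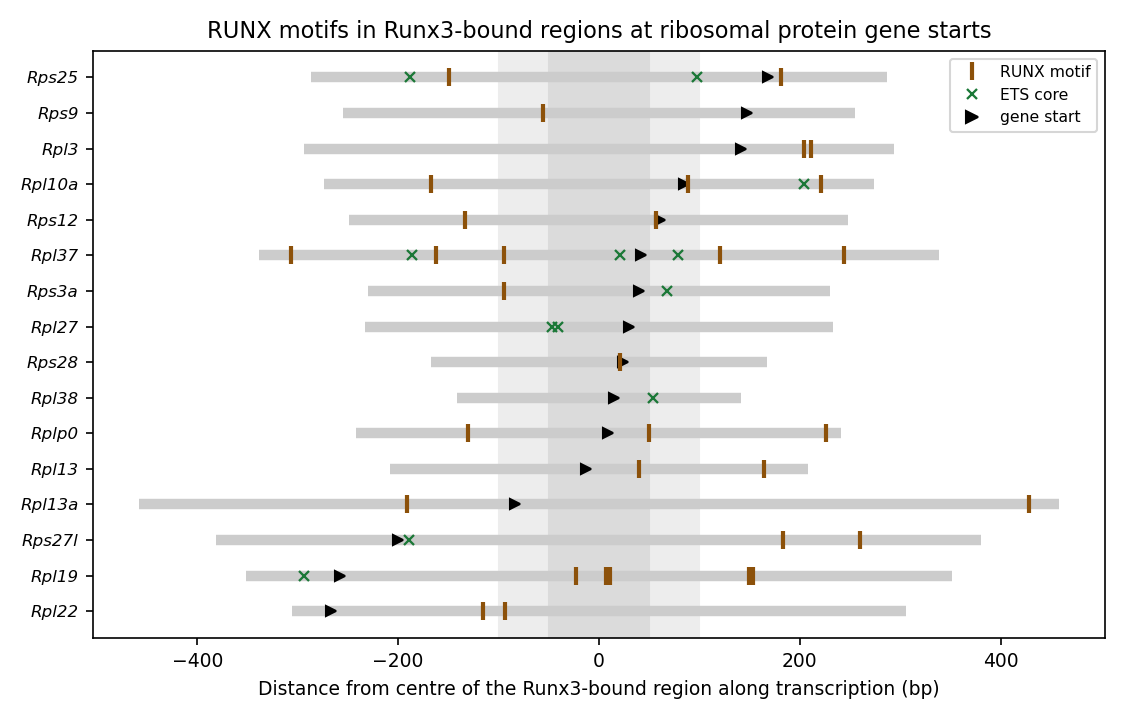
RUNX motifs (vertical marks) and ETS cores (crosses) in the 16 Runx3-bound regions at member starts. The x axis is the distance from the region centre in bp along transcription, grey bars are the regions, triangles are gene starts and shading marks the central 200 and 100 bp. In 3 genes (Rpl13, Rpl19 and Rps28) a whole motif lies in the central 100 bp.

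Motifs upstream of the start were counted next, whether or not Runx3 was found there. In the 250 bp upstream of the start a RUNX motif was present in 31 of 77 core genes (40.3%), compared to 41.7% of CpG-rich and 37.5% of all starts. Of the 31 core genes with a motif, 7 had Runx3 within 1 kb (22.6%, interval 11.4 to 39.8%), and of the 46 without, 8 did so (17.4%, interval 9.09 to 30.7%). For CpG-rich starts these shares were 19.9% and 12.0%. The ps-named loci held a motif in 21 of 53 cases (39.6%), with no Runx3-bound region within 1 kb. The ETS core CCGGAA was present upstream of 25 core genes (32.5%), compared to 23.0% of CpG-rich and 13.9% of all starts, and of 4 of the 15 with Runx3 within 1 kb.

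Finally, the shares were set beside those of other gene groups for making and removing protein. Translation initiation and elongation factors were taken as all genes with names beginning Eif or Eef, including Eif2c2, Eif2c3 and Eif2ak3. Within 1 kb a Runx3-bound region was found at 14 of 77 mitochondrial ribosomal protein genes (18.2%, interval 11.2 to 28.2%) and at 16 of 67 Eif and Eef genes (23.9%, interval 15.3 to 35.3%). It was found at 6 of 42 annotated entries for proteasome subunit genes (14.3%, interval 6.72 to 27.8%). These intervals overlap that of the core ribosomal protein genes. Of all starts 8.84% had such a region, and of CpG-rich starts 15.3%. H3K4me1 within 5 kb was found at 18, 13 and 14 of these entries (23.4%, 19.4% and 33.3%), the last with Psmb9 counted 2 times because the annotation holds 2 entries for it, and the intervals also overlap that of the core genes.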

How the data were processed

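The authors used ELAND for alignment to mm9, discarded reads without a unique place, joined repeats and called peaks with MACS against joined NIS reads, the larger read set being scaled to the smaller. The deposited values were peak positions in bp (start and end), with no height or score. The protocol speaks of repeats for both antibodies, whereas the labels give 1 H3K4me1 library. Region centres were placed relative to the most upstream base of each gene in GENCODE vM1, on the NCBIM37 assembly, counted from 1. The members and lists were chosen with earlier results of these data known, and the separation of ps-named loci was added after the data were examined. The side of H3K4me1-marked regions and the band of 1 to 2.5 kb were likewise not planned. Named were members with a Runx3-bound region within 5 kb or an H3K4me1-marked one within 1 kb, and 10 members whatever their values (Rpl5, Rpl11, Rps6, Rps14, Rps19, Rplp0, Rplp1, Rplp2, Rpsa and Rpl10a). Some genes are counted but not reported here by name. Further members stand as examples and were chosen after their values were seen. Uniqueness by 32-base words approximates alignment. Shares were described with Wilson intervals, with no test. Python 3.11.15, pandas 2.3.3, SciPy 1.17.1 and pysam 0.24.0 were used, and functions were tested on simulated data. Alternatives changed the distance rule, starts, members, regions and motif window.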

Additional observations from a re-analysis of the deposited data

How the results depend on the processing

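Of 45 values recomputed for 6 shares, 33 stayed within the interval of the reported value and 12 did not. Leaving out ps-named loci, an alternative chosen after seeing the data, gave 18.8% for Runx3 within 1 kb, 30.6% for Runx3 within 5 kb and 34.1% for H3K4me1 within 5 kb, and keeping members with several exons, also chosen afterwards, gave 19.3%, 31.3% and 34.9%. H3K4me1 within 1 kb became 10.1% by the nearest base of the region and 6.52% over the starts of every transcript. Overlap of promoter regions with H3K4me1 was 0% both when at least 50% of the region and when its centre had to be covered. The RUNX motif share was 62.5% in the central 200 bp and 18.75% in the central 100 bp. A minimum score and leaving out each repeat were not run, since the lists hold neither scores nor regions by library. No paired analysis was possible because repeats had been joined before peak calling, so that the lists hold no region by library. The lists hold no read numbers by region, so for a member without a region the number of reads there is not known.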

Other observations

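Runx3 was also found at genes outside the naming rule. Fau, which encodes a ribosomal protein of the small subunit fused to a ubiquitin-like protein, had a Runx3-bound region centred at 20 bp from its start. Among 40 genes of ribosome biogenesis, 7 (17.5%, 95% Wilson interval 8.75 to 31.9%) had a Runx3-bound region within 1 kb (Mdn1, Nat10, Nip7, Nop14, Nop2, Nop56 and Pno1). The shares of all starts (8.84%) and of CpG-rich starts (15.3%) lay inside this interval. An H3K4me1-marked region within 5 kb was found at 10 (25.0%), compared to 15.8% of all starts and 22.2% of CpG-rich starts. Of 8 genes of growth control of translation, Mycn (-606 bp), Myc (1342 bp) and Mtor (-3706 bp) had a Runx3-bound region within 5 kb, and Rptor, Larp1, Eif4ebp1, Rps6kb1 and Rps6kb2 had none. This share was 37.5% (interval 13.7 to 69.4%), compared to 13.4% of all starts and 20.5% of CpG-rich starts.

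Core ribosomal protein genes shared other features. A small nucleolar RNA gene lay inside 30 of 77 core genes (39.0%), compared to 1.20% of all genes, in 6 of the 15 with a Runx3-bound region within 1 kb (40.0%) and in 24 of the 62 without (38.7%). A run of at least 8 pyrimidines within 50 bp of the start was found in 48 of 77 (62.3%), compared to 30.6% of CpG-rich starts and 56.6% of ps-named loci, in 9 of the 15 core genes with Runx3 and in 39 of the 62 without (62.9%). A run of at least 5 pyrimidines at the annotated start itself was found in 9.09% of core genes and 9.07% of CpG-rich starts. Of the 77 core genes, 37 had neither a Runx3-bound nor an H3K4me1-marked region within 5 kb, and 12 had both. Of all 22350 starts, 1466 had both. Among starts without Runx3 within 5 kb, 10.7% of the 19344 were marked by H3K4me1, compared to 30.2% of the 53 core genes. Runx3 within 5 kb was found at 13.4% of all starts and 31.2% of core genes. Lacking both was thus less common in core genes than over all starts. Of CpG-rich starts, with or without Runx3, 22.2% were marked within 5 kb. They were not split by Runx3, and the part of CpG content in these differences was not tested.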
